A study of Rattus norvegicus with 18 samples.

Results

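The genes described here remove superoxide and peroxides from cells or decide how far membrane lipids are exposed to peroxidation. They are the rows of the deposited count table whose symbol is Gpx1, Gpx3, Gpx4, Sod1, Sod2, Sod3, Cat, Prdx1, Prdx6 or Acsl4, which makes 10 of 30735 genes, and all 10 passed the filter on low counts that left 18444 genes for testing. The libraries were made from bulk cerebral cortex RNA of 18 adult Sprague Dawley rats aged 8 to 10 weeks, 1 library for each rat, and fall into sham, SAH 1d and SAH 7d with 6 rats apiece. In the SAH groups, subarachnoid hemorrhage (SAH), bleeding into the space around the brain, was made by pushing a filament through a vessel wall from inside, and the tissue was taken on day 1 or day 7. The sham rats had the operation without the perforation, and the day on which their tissue was taken and the sex of the rats are not stated in the sources used here. The study's methods name the whole cortex of the operated side, whereas the sample labels name both sides and mice. The identifiers in the count table are rat genes.

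Superoxide dismutases turn superoxide into hydrogen peroxide, and catalase, glutathione peroxidases and peroxiredoxins then reduce the peroxide. Ferroptosis is a form of cell death driven by iron-dependent peroxidation of membrane phospholipids. Gpx4 reduces phospholipid hydroperoxides and holds ferroptosis back, while Acsl4 loads polyunsaturated fatty acids into the phospholipids that can be peroxidised. After a bleed, hemoglobin and its iron are a source of such oxidants in the tissue.

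The libraries held between 27270026 and 38271014 counts. SAH 7d-5 and SAH 1d-3 stood apart from the rest of their groups. SAH 1d-3 was the highest or the lowest of its group in 68.5% of the tested genes and SAH 7d-5 in 75.5%, against 17.6% to 51.5% for the other libraries. The same held in 7 and in 9 of the 10 genes, respectively, so values are given with and without these libraries. Of the other libraries, sham-1 was most often at the edge of its group, in 51.5% of the tested genes and in 6 of the 10 genes. The cortex markers were present in each group, with summed neuron markers (7 genes) at 5895 to 9319 CPM (counts per 1000000, scaled by the TMM method) in sham, 4832 to 5855 CPM in SAH 1d and 2351 to 8426 CPM in SAH 7d. Of the 7 neuron markers, 6 fell in SAH 1d versus sham. In bulk tissue, fewer cells of a type and less RNA per cell cannot be told apart, and this applies to each value that follows.

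On the length-corrected FPKM scale (fragments per kilobase and per 1000000 mapped reads), Gpx4 had the highest level in sham, with a mean of 223 ± 11.0 FPKM (SD, n = 6). Prdx6 (132 ± 14.0 FPKM), Sod1 (125 ± 12.2 FPKM) and Prdx1 (105 ± 10.3 FPKM) came next and overlapped their neighbours in this order. Sod2 followed at 67.6 ± 5.64 FPKM, apart from both neighbours. Gpx1 (46.6 ± 6.52 FPKM), Acsl4 (35.0 ± 5.53 FPKM) and Cat (25.1 ± 3.30 FPKM) again overlapped from one to the next, and the secreted enzymes Sod3 (9.69 ± 1.84 FPKM) and Gpx3 (7.82 ± 1.17 FPKM) were lowest and overlapped. In SAH 1d the highest 6 genes, from Gpx4 (200 ± 39.6 FPKM) through Prdx1, Sod1, Prdx6 and Sod2 to Gpx1 (82.5 ± 9.04 FPKM), overlapped each with the next. In SAH 7d Gpx4 was again highest, at 207 ± 37.2 FPKM, and Gpx1 and Gpx3 had SDs above their means.

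**Figure D1:**
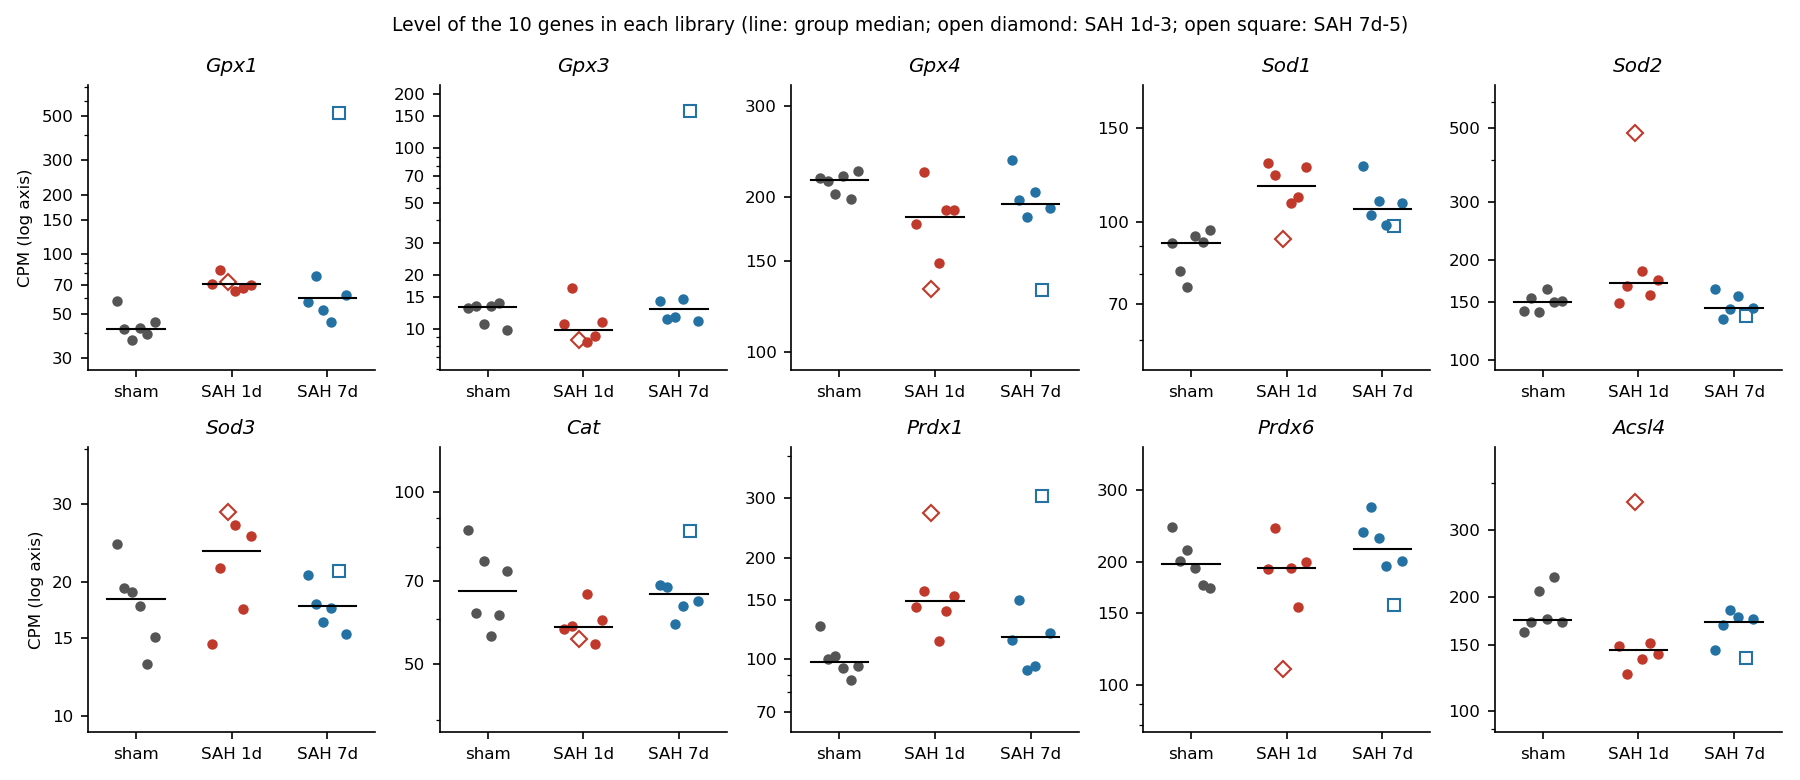
Each panel shows 1 gene, with CPM on a log axis that differs between panels, 1 point per library and a line at the median of the 6 libraries of a group. Gpx1 lies higher in all SAH 1d libraries than in any sham library, and the open symbols show SAH 1d-3 far above its group for Sod2 and Acsl4 and SAH 7d-5 far above its group for Gpx1 and Gpx3.

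In SAH 1d versus sham, Gpx1, Prdx1 and Sod1 rose, 3 of the 10 genes, by edgeR's quasi-likelihood test at a Benjamini-Hochberg adjusted p under 0.05. Of all tested genes, 14.9% rose and 10.5% fell. None of the 10 genes fell, and none was called with a change of 2-fold or more, as 6.64% of all genes were. At an unadjusted p under 0.05, 6 of the 10 genes passed, beside 38.8% of all genes. The median log2 fold change of the 10 genes was 0.12, against 0.01 for all tested genes. The groups did not overlap for 1 gene, Gpx1, which was higher, and for no gene that was lower, whereas 7.89% of all tested genes were higher without overlap and 5.41% were lower. Between SAH 7d and SAH 1d none of the 10 genes passed edgeR's test, where 0.282% of all genes were called higher and 1.08% lower. The DESeq2 test, which called 5.49% of all genes and gave no adjusted p for Gpx1 and Gpx3, and limma's voom with sample weights, which called 14.7%, also called 0 of the 10. At an unadjusted p under 0.05, Gpx3, Sod2 and Cat passed in edgeR, 3 of the 10 genes beside 14.7% of all genes. None of the 10 was without overlap, and 0.938% of all genes were higher and 2.11% lower without overlap. Against sham, edgeR called 0% of genes higher and 0% lower in SAH 7d, so none of the 10 genes could stand out by this test. The DESeq2 test, which called 2.49% of all genes and again gave no adjusted p for Gpx1 and Gpx3, and voom, which called 0.0108%, called 0 of the 10 genes there. Gpx1, Gpx3 and Sod1, 3 of the 10 genes, had an unadjusted p under 0.05 in edgeR, beside 15.4% of all genes. Sod1 alone of the 10 was higher without overlap, as 0.797% of all genes were, and none was lower without overlap, as 0.428% were. The 3 comparisons share libraries by pairs, so they are not independent of each other.

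**Figure D2:**
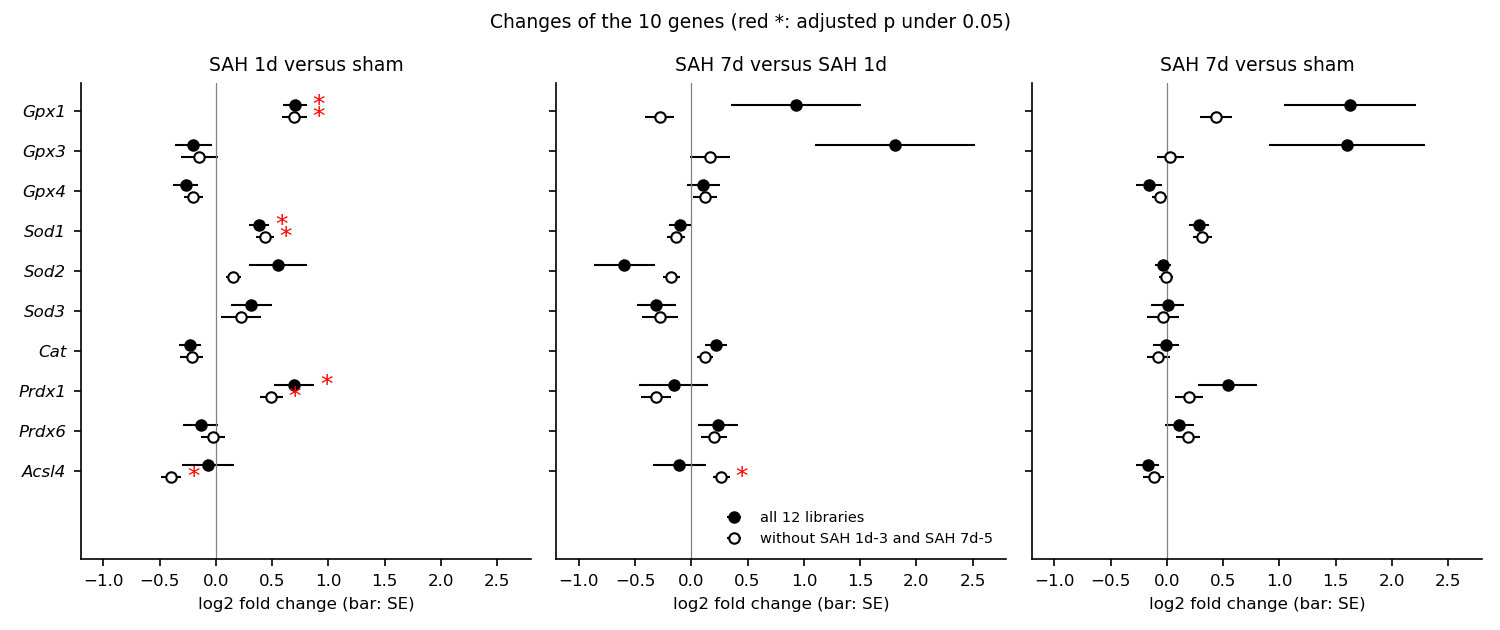
The log2 fold change of each gene is plotted with its SE for the 3 comparisons, from all 12 libraries (filled) and without SAH 7d-5 and SAH 1d-3 (open), with a red asterisk at an adjusted p under 0.05. Gpx1, Sod1 and Prdx1 carry asterisks in SAH 1d versus sham with both sets of libraries, whereas Acsl4 carries one only in the smaller set, and the large SAH 7d values of Gpx1 and Gpx3 shrink in it.

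Among the superoxide dismutases, Sod1, the copper and zinc enzyme of the cytosol, ranged from 75.3 to 96.7 CPM in sham (median 91.4), from 92.6 to 129 CPM in SAH 1d (median 117) and from 98.2 to 127 CPM in SAH 7d (median 106). Each SAH 7d library was above the highest sham library, and in SAH 1d only SAH 1d-3 was within the sham range. Sod1 rose in SAH 1d versus sham by a log2 fold change of 0.38 ± 0.09 (SE, adjusted p = 0.0101, edgeR). It was called in each of 24 alternatives, with adjusted p from 6.43e-06 to 0.0258 by edgeR, DESeq2 or limma. The SAH 7d versus sham value was 0.29 ± 0.09 (adjusted p = 0.214, edgeR), and SAH 7d versus SAH 1d gave -0.10 ± 0.10 (adjusted p = 0.679, edgeR). Without SAH 7d-5 and SAH 1d-3 the DESeq2 test called Sod1 in SAH 7d versus sham, at 0.31 and adjusted p = 0.0234, while edgeR gave adjusted p = 0.135.

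Sod2, the manganese enzyme of mitochondria, was tightly held in sham, from 140 to 164 CPM with a median of 150. In SAH 1d it ranged from 148 to 482 CPM with a median of 171, and in SAH 7d from 133 to 164 CPM with a median of 143. The 482 CPM belonged to SAH 1d-3, 2.89 times the mean of the other 5 SAH 1d libraries, which lay between 148 and 186 CPM and overlapped sham. The SAH 1d versus sham value of 0.56 ± 0.26 did not pass the test (adjusted p = 0.128, edgeR), and without SAH 1d-3 it was 0.16 ± 0.07 (adjusted p = 0.104). SAH 7d versus SAH 1d gave -0.59 ± 0.27 (adjusted p = 0.327, edgeR) and SAH 7d versus sham -0.03 ± 0.07 (adjusted p = 0.800, edgeR).

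Sod3, the secreted enzyme bound to the outside of cells, ranged from 13.1 to 24.4 CPM in sham (median 18.3), from 14.5 to 28.9 CPM in SAH 1d (median 23.5) and from 15.3 to 21.1 CPM in SAH 7d (median 17.7). The 3 groups overlapped widely. Its log2 fold changes were 0.31 ± 0.18 in SAH 1d versus sham (adjusted p = 0.223, edgeR), -0.31 ± 0.17 in SAH 7d versus SAH 1d (adjusted p = 0.435) and 0.01 ± 0.14 in SAH 7d versus sham (adjusted p = 0.982).

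Gpx1, the glutathione peroxidase of the cytosol and mitochondria, had the lowest adjusted p of the 10 genes on day 1. It ranged from 37.0 to 58.3 CPM in sham (median 41.9) and from 65.1 to 83.6 CPM in SAH 1d (median 70.5), so every SAH 1d library was above every sham library. The log2 fold change was 0.70 ± 0.11 (SE, adjusted p = 0.000715, edgeR), a 1.63-fold rise, and SAH 1d-3, at 72.3 CPM, was inside its group. The call was made in 23 of 24 alternatives and lost in the edgeR fit of all 18 libraries (adjusted p = 0.328), in which SAH 7d-5 enters the estimate of the spread. In SAH 7d Gpx1 ranged from 45.3 to 517 CPM with a median of 59.8. SAH 7d-5 alone was at 517 CPM, 8.75 times the mean of the other 5, which reached 78.0 CPM and overlapped both other groups. With all libraries SAH 7d versus sham gave 1.63 ± 0.59 (adjusted p = 0.259, edgeR), and without SAH 7d-5 it gave 0.43 ± 0.14 (adjusted p = 0.216). The direction of SAH 7d versus SAH 1d depended on that library, at 0.93 ± 0.58 with it (adjusted p = 0.489, edgeR) and -0.29 without it (adjusted p = 0.168).

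Gpx3, the secreted glutathione peroxidase of plasma and extracellular fluid, was low in most libraries. It ranged from 9.91 to 13.8 CPM in sham (median 13.2), from 8.45 to 16.7 CPM in SAH 1d (median 9.88) and from 11.0 to 161 CPM in SAH 7d (median 12.9). The 161 CPM were those of SAH 7d-5, 12.8 times the mean of the other 5 SAH 7d libraries, which lay between 11.0 and 14.7 CPM and overlapped sham. SAH 1d versus sham gave -0.20 ± 0.17 (adjusted p = 0.395, edgeR). The large values of 1.81 ± 0.71 in SAH 7d versus SAH 1d (adjusted p = 0.247, edgeR) and 1.60 ± 0.69 in SAH 7d versus sham (adjusted p = 0.303, edgeR) became 0.22 and 0.03 without SAH 7d-5.

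Gpx4 ranged from 198 to 225 CPM in sham (median 216), from 133 to 223 CPM in SAH 1d (median 183) and from 132 to 236 CPM in SAH 7d (median 194). Of the SAH 1d libraries, 5 were below the lowest sham library, while SAH 1d-2, at 223 CPM, was near the highest. SAH 7d-5 and SAH 1d-3 were the lowest of their groups. The SAH 1d versus sham value was -0.27 ± 0.11 (adjusted p = 0.0833, edgeR), which did not pass the test. It passed without SAH 1d-2, at -0.35 (adjusted p = 0.0263, edgeR), and in voom with sample weights, at -0.22 (adjusted p = 0.0416, limma), and not in the other 22 alternatives. The later comparisons gave 0.11 ± 0.15 for SAH 7d versus SAH 1d (adjusted p = 0.781, edgeR) and -0.16 ± 0.11 for SAH 7d versus sham (adjusted p = 0.474, edgeR).

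Cat encodes catalase, the peroxide-splitting enzyme of peroxisomes. It ranged from 56.0 to 85.7 CPM in sham (median 67.2), from 54.3 to 66.2 CPM in SAH 1d (median 58.0) and from 58.9 to 85.6 CPM in SAH 7d (median 66.5). The groups overlapped. SAH 1d versus sham gave -0.23 ± 0.10 (adjusted p = 0.109, edgeR), SAH 7d versus SAH 1d 0.22 ± 0.10 (adjusted p = 0.326) and SAH 7d versus sham -0.01 ± 0.12 (adjusted p = 0.975).

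Prdx1, a peroxiredoxin of the cytosol that is reduced by thioredoxin, ranged from 86.8 to 125 CPM in sham (median 98.0), from 113 to 271 CPM in SAH 1d (median 148) and from 92.9 to 304 CPM in SAH 7d (median 117). SAH 1d-3 (271 CPM) and SAH 7d-5 (304 CPM) were far above their groups. Of the other SAH 1d libraries, SAH 1d-4, at 113 CPM, was within the sham range. Prdx1 rose in SAH 1d versus sham by 0.70 ± 0.18 (SE, adjusted p = 0.0130, edgeR), and without SAH 1d-3 by 0.49 ± 0.10 (adjusted p = 0.00339). The call was made in 23 of 24 alternatives, with adjusted p from 9.26e-05 to 0.0797, and was lost in the edgeR fit of all 18 libraries. SAH 7d versus sham gave 0.54 ± 0.26 (adjusted p = 0.343, edgeR) and, without SAH 7d-5, 0.19 ± 0.13 (adjusted p = 0.558), while SAH 7d versus SAH 1d gave -0.16 ± 0.31 (adjusted p = 0.860).

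Prdx6, the 1-cysteine peroxiredoxin that also reduces phospholipid hydroperoxides, ranged from 173 to 244 CPM in sham (median 197), from 110 to 242 CPM in SAH 1d (median 193) and from 157 to 273 CPM in SAH 7d (median 215). SAH 7d-5 and SAH 1d-3 were the lowest of their groups, in contrast to their high Prdx1. Its log2 fold changes were -0.13 ± 0.15 in SAH 1d versus sham (adjusted p = 0.549, edgeR), 0.24 ± 0.18 in SAH 7d versus SAH 1d (adjusted p = 0.569) and 0.11 ± 0.13 in SAH 7d versus sham (adjusted p = 0.644).

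Acsl4 ranged from 162 to 226 CPM in sham (median 174), from 126 to 356 CPM in SAH 1d (median 145) and from 138 to 185 CPM in SAH 7d (median 172). The SAH 1d group was split. SAH 1d-3 was at 356 CPM, above every other library, and the other 5 lay between 126 and 152 CPM, below the lowest sham library. With all libraries the SAH 1d versus sham value was -0.07 ± 0.23 (adjusted p = 0.855, edgeR). Without SAH 1d-3, Acsl4 fell by 0.40 ± 0.09 on the log2 scale (adjusted p = 0.00651, edgeR), and voom with sample weights, run on all 12 libraries, gave -0.35 (adjusted p = 0.0149, limma). SAH 7d versus SAH 1d likewise turned from -0.11 ± 0.24 (adjusted p = 0.883, edgeR) to 0.27 ± 0.08 without SAH 7d-5 and SAH 1d-3, which passed the test (adjusted p = 0.0402, edgeR). In that setting 13.6% of all genes passed. Both libraries were left out because they stood apart in these same data, in which SAH 1d-3 held the highest Acsl4. SAH 7d versus sham gave -0.17 ± 0.10 (adjusted p = 0.421, edgeR).

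**Figure D3:**
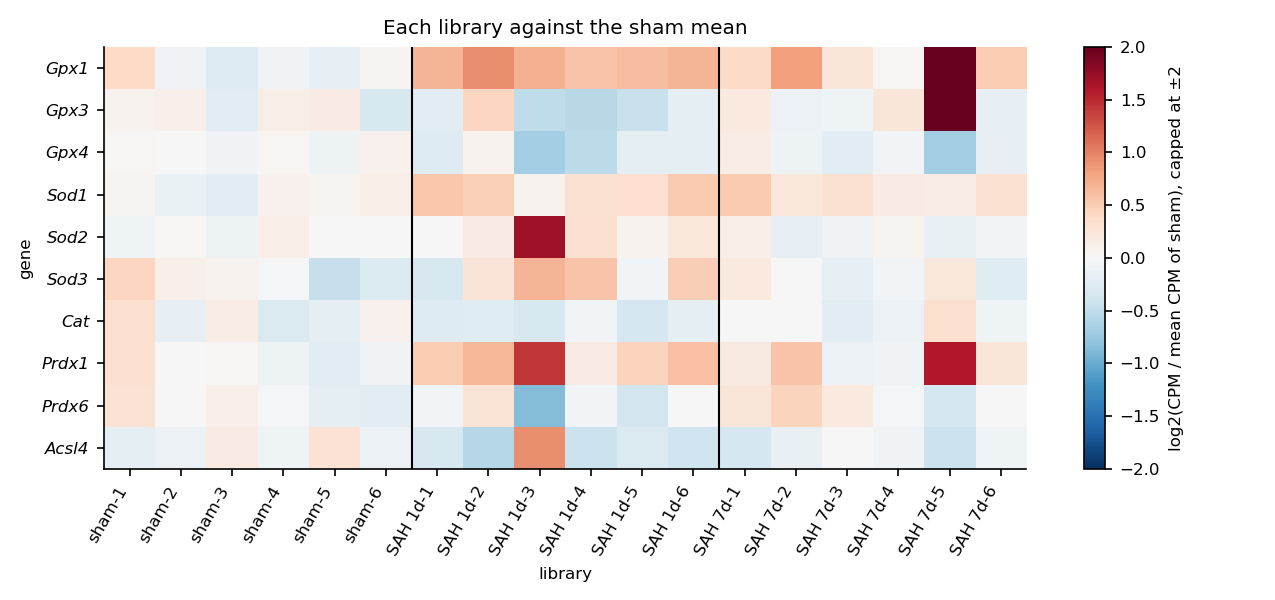
Colours give the log2 ratio of the CPM in each library (columns, groups divided by lines) to the mean CPM of sham for each gene (rows), capped at ±2. The SAH 1d block is red for Gpx1 throughout and mostly red for Prdx1 and Sod1, and SAH 7d-5 and SAH 1d-3 show columns of their own, with high Prdx1 and low Gpx4 and Prdx6 in both.

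The levels that set SAH 7d-5 and SAH 1d-3 apart were seen beside markers of other cells. The summed monocyte and macrophage markers (6 genes, 5 with a row and none at 0 in a whole group) were 8770 CPM in SAH 7d-5, against 93.4 to 284 CPM in the other SAH 7d libraries, and 633 CPM in SAH 1d-3, against 97.9 to 134 CPM in the other SAH 1d libraries and 51.1 to 93.8 CPM in sham. Lyz2 made up 8006 CPM of the sum in SAH 7d-5, where all 5 markers were the highest of their group. In SAH 1d-3 most of the sum was Lyz2 (466 CPM) and Cd14 (132 CPM). Cd68 was also the highest of its group there (13.9 CPM), whereas Mrc1 (14.0 CPM) and Cd163 (7.20 CPM) were inside it. The summed markers of meningeal fibroblasts (5 genes) were 3899 CPM in SAH 7d-5 and at most 323 CPM in the rest of its group, and the neuron markers were 2351 CPM against at least 6514 CPM. The microglia markers (6 genes) were 2447 CPM in SAH 7d-5 against 318 to 1013 CPM, and the mural cell markers (5 genes) were 249.1 CPM against 116 to 134 CPM. Most of the mural cell sum in SAH 7d-5 was Pdgfrb, at 151 CPM against 26.4 to 35.1 CPM. Rgs5 was at 43.4 CPM against at most 40.0 CPM, and Kcnj8, Abcc9 and Acta2 were inside their group. Neutrophil markers (6 genes) summed to 56.5 CPM in SAH 1d-3, with at most 14.3 CPM in the rest of its group. Their sum of 90.3 CPM in SAH 7d-5 was nearly all Csf3r (89.2 CPM), with S100a8 at 0.212 CPM and S100a9 at 0.696 CPM. In SAH 1d-3 the sum was mostly S100a9 (30.5 CPM), Csf3r (20.9 CPM) and S100a8 (4.74 CPM). The granule genes were at or near 0 in both libraries. Mpo was at 0 in both, Elane at 0.0605 CPM in SAH 7d-5 and 0.178 CPM in SAH 1d-3, and Camp at 0.0908 and 0.152 CPM. Red cell markers (6 genes, 5 with a row) summed to 189 CPM in SAH 1d-3, against at most 101 CPM. The part of these markers in the values of Gpx1, Gpx3, Prdx1, Sod2 and Acsl4 was not tested. Gpx1 in SAH 1d was as high without SAH 1d-3 (log2 fold change 0.70) as with it. In SAH 1d versus sham without that library, where 28.5% of all genes were called, 4 of the 5 tested monocyte and macrophage markers rose. Of the 6 microglia markers, 3 rose and 1 fell, and all 5 tested choroid plexus markers rose. None of the 7 neuron markers rose, and all 7 fell. The summed astrocyte markers (6 genes) were 4517 to 5685 CPM in SAH 1d and 2085 to 3813 CPM in sham, and Gfap, the 1 marker that rose, made up much of it (2244 to 3769 CPM in SAH 1d against 285 to 540 CPM in sham). With all libraries, Aldh1l1 fell by 0.85, and the median log2 fold change of the 6 markers was -0.17, against -0.08 without SAH 1d-3. The choroid plexus markers (6 genes) reached 1071 CPM in SAH 1d-6 and 741 CPM in SAH 1d-4, against 24.0 to 48.8 CPM in the other 4 SAH 1d libraries. Of the 10 genes, 4 were the highest or the lowest of their group in SAH 1d-4 and 0 in SAH 1d-6, beside 31.7% and 21.9% of all tested genes. The part of the choroid plexus markers in the results was not tested.

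**Figure D4:**
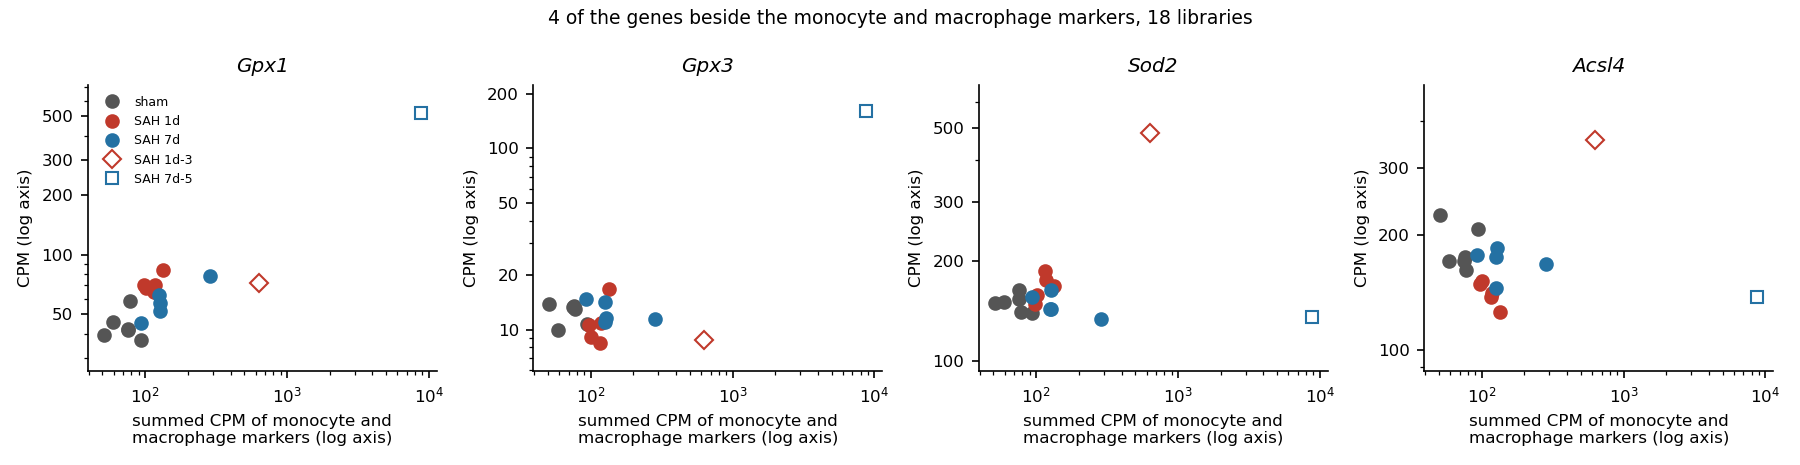
The CPM of 4 of the genes (vertical, log axis) is plotted against the summed CPM of the monocyte and macrophage markers (horizontal, log axis) in the 18 libraries. SAH 7d-5, at 8770 CPM of markers, has the highest Gpx1 and Gpx3 but lies within its group for Sod2, and SAH 1d-3, at 633 CPM, has the highest Sod2 and Acsl4 but lies within its group for Gpx1 and Gpx3.

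Around these 10 genes, 79 genes of the same pathways were listed in 8 groups, of which 75 had a row and 70 were tested. The counts of each list in SAH 1d versus sham stand beside 14.9% of all tested genes that rose and 10.5% that fell. Among the 3 other glutathione peroxidases tested, 2 rose in SAH 1d versus sham and none fell. They were Gpx8, an enzyme of the endoplasmic reticulum (0.40 ± 0.10, adjusted p = 0.0128, edgeR), and Gpx2, the epithelial form (2.62 ± 0.79, adjusted p = 0.0279), which was barely present, with medians of 0.309 CPM in sham and 1.24 CPM in SAH 1d, and was not called without SAH 1d-3 (adjusted p = 0.0574). Among 9 other peroxiredoxin and thioredoxin genes, 1 rose, Txnrd1, the cytosolic thioredoxin reductase (0.69 ± 0.18, adjusted p = 0.0169), which ranged from 64.0 to 74.9 CPM in sham and from 83.3 to 196 CPM in SAH 1d, with no overlap.

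Of 9 genes of glutathione synthesis and recycling, 4 rose and none fell, beside 14.9% and 10.5% of all tested genes. Chac1, which degrades glutathione, rose by 1.45 ± 0.16 (adjusted p = 8.89e-05, edgeR), from 7.53 to 12.7 CPM in sham to 19.7 to 35.8 CPM in SAH 1d. It returned to 6.41 to 11.1 CPM in SAH 7d and was the only one of the 70 genes that changed in SAH 7d versus SAH 1d, where it fell by 1.56 ± 0.17 (adjusted p = 0.000980, edgeR). Slc3a2, a subunit of the cystine transporter, rose by 0.79 ± 0.13 (adjusted p = 0.00115, edgeR). Slc7a11, its other subunit, named after its values were seen, overlapped between the groups, at 84.7 to 182 CPM in sham and 103 to 222 CPM in SAH 1d. Gclm, the modifier subunit of the enzyme that limits glutathione synthesis, also rose (0.44) and was named after its value was seen.

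Of 7 genes of selenoprotein synthesis, on which the selenium enzymes Gpx1, Gpx3 and Gpx4 depend, 2 rose, Secisbp2 (0.46 ± 0.08, adjusted p = 0.00189, edgeR) and Scly (0.32 ± 0.11, adjusted p = 0.0473). Of 5 genes for the metal loading of superoxide dismutases, 2 rose, the copper transporters Atp7a (0.81 ± 0.17, adjusted p = 0.00493) and Slc31a1 (0.48 ± 0.15, adjusted p = 0.0350, and 0.0531 without SAH 1d-3). No gene of either list fell with all libraries, where 14.9% of all tested genes rose and 10.5% fell.

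The NADPH oxidase genes, which make superoxide in phagocytes, had the largest median change, 1.64, and 5 of 6 rose, beside 14.9% of all tested genes. Ncf4, a cytosolic subunit, rose by 3.11 ± 0.31 (adjusted p = 3.91e-05, edgeR), from 0.695 to 1.43 CPM in sham to 6.76 to 20.4 CPM in SAH 1d, and Rac2, the small GTPase of the complex, by 2.06 ± 0.19 (adjusted p = 3.38e-05). The same 5 genes include Cyba, Cybb and Ncf1, and 5 were also called without SAH 1d-3. The monocyte and macrophage markers rose in the same comparison (4 of 5 tested), and their part in these values was not tested.

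Among 16 ferroptosis genes, 4 rose and 1 fell in SAH 1d versus sham, beside 14.9% and 10.5% of all tested genes. Hmox1, the heme-degrading oxygenase that releases iron, rose by 4.48 ± 0.47 (adjusted p = 6.48e-05, edgeR), from 4.45 to 7.26 CPM in sham to 57.2 to 380 CPM in SAH 1d, and by 3.79 without SAH 1d-3. Gch1, which limits synthesis of the antioxidant tetrahydrobiopterin, rose by 2.41 ± 0.36 (adjusted p = 0.000730). Acsl3, which activates monounsaturated fatty acids, fell by 0.51 ± 0.09 (adjusted p = 0.00209), from 322 to 389 CPM in sham to 201 to 299 CPM in SAH 1d. The remaining 2 that rose, named after their values were seen, were Sat1 (0.79) and the ferritin light chain Ftl1 (0.64). Ftl1 was at only 5.99 to 8.93 CPM in sham, and the treatment of reads that align in several places is not stated. The ferritin heavy chain Fth1 was not called, at 838 to 1054 CPM in sham and 768 to 1654 CPM in SAH 1d. Of 15 peroxisome genes only Hsd17b4, an enzyme of peroxisomal fatty acid oxidation, rose (0.36 ± 0.08, adjusted p = 0.00734), and none fell.

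**Figure D5:**
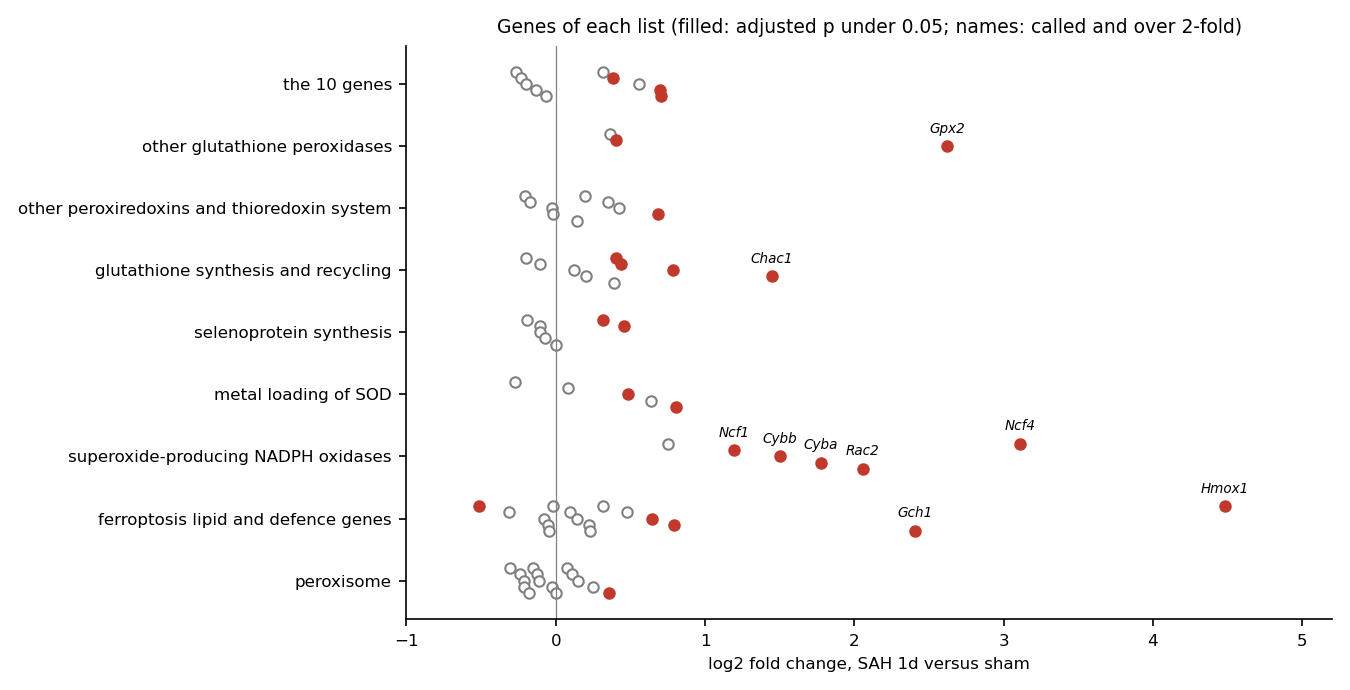
Each point is 1 tested gene, placed by its log2 fold change in SAH 1d versus sham (horizontal) in the list it belongs to (vertical), filled where the adjusted p was under 0.05 and named where the fold was also over 2. The 10 genes lie between -0.27 and 0.70, whereas 5 of 6 NADPH oxidase genes lie above 1 and Hmox1 reaches 4.48.

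Without SAH 7d-5 and SAH 1d-3, 10 of the 70 pathway genes and 1 of the 10 genes, Acsl4, passed the test in SAH 7d versus SAH 1d, beside 13.6% of all genes. Of the 10 pathway genes, 9 were lower, among them Hmox1 at -2.74 (adjusted p = 0.000165, edgeR) and 1 higher, Acsl3, at 0.50 (adjusted p = 0.00156). No listed gene passed edgeR's test in SAH 7d versus sham, with all libraries or without the 2 libraries.

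Promoter sequences of 8 of the 10 genes were taken from RefSeq (build GRCr8, 10 windows of 300 bases), and those of Prdx6 and Sod3 were not matched. The core of the antioxidant response element, the site bound by the oxidant-sensing factor Nrf2, was searched as TGACNNNGC on both strands. It occurred in 12.1% of 33469 promoter windows and in 2 of the 10 windows, those of Prdx1 and Sod2. The sequences are shown because Prdx1 rose in SAH 1d and Sod2 had the highest value of its group in SAH 1d-3. The 250 bases before the start of each gene are given, for Prdx1 chr5:135383656-135383905 on the plus strand and for Sod2 chr1:50050169-50050418 on the minus strand, both read in the direction of the gene, with the match in capitals.
Prdx1: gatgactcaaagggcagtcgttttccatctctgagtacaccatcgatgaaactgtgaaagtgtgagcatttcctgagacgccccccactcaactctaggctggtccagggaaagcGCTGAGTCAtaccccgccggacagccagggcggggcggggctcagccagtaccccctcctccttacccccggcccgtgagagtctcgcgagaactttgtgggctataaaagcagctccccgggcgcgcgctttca
Sod2: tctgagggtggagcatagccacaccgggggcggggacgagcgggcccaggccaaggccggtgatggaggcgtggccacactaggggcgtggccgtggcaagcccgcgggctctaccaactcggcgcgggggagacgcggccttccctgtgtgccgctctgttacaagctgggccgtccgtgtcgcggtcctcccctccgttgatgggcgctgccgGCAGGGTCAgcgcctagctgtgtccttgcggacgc
Both matches are on the strand opposite to the gene. GCTGAGTCA in Prdx1 begins 135 bases before the start and GCAGGGTCA in Sod2 begins 35 bases before it. The core GGANTTTCC of sites of the factor NF-kappa-B was in 1.28% of all windows and in 0 of the 10 windows, which says only that these letters are not in these windows.

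The genes whose log2 CPM followed that of Gpx1 most closely over the 18 libraries were Ugt1a7c (Pearson r = 0.98), Tcirg1 (0.98), Dnase2 (0.98), Lgmn (0.98) and Mylip (0.97). SAH 7d-5 was the highest SAH 7d library for all 5, for example at 1406 CPM for Lgmn, where the other 5 SAH 7d libraries reached 213 CPM. Over the 16 libraries without SAH 7d-5 and SAH 1d-3, the closest genes were different ones and included Lrp10 (0.97), Szrd1 (0.96), Pla2g4a (0.96) and Jpt2 (0.96). These values describe libraries that share group and tissue composition.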

How the data were processed

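RNA-seq libraries of 18 rats were assigned to groups by their descriptions, which equal the column names, whereas the SAH titles carry different codes. Per the labels, the submitters' processing notes name fastp, HISAT2 and DESeq2 1.16.1 and the mouse build mm9, while the study's methods name the rat genome Rnor_6.0. The counting program is not given in the sources used here, nor is the treatment of reads that align in several places, which touches genes with processed copies. The authors deposited raw counts per gene and library, with 27270026 to 38271014 counts per library, and FPKM values that the authors scaled to transcript length and mapped reads. No column was left unassigned. Because it is not stated that a count is 1 molecule, errors come from the spread among rats.

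The filterByExpr function, applied to all 18 libraries, selected the genes, which were tested with edgeR 4.0.16 (R 4.3.3, TMM, quasi-likelihood F test, two-sided) on the 12 libraries of each comparison. SE is the log2 fold change divided by the root of F. Tests were also run on simulated data with 200 changed genes. Alternatives were DESeq2 1.42.0, limma 3.58.1 (voom with sample quality weights, and trend on log2(FPKM + 1) or log2(FPKM + 0.1) with a mean FPKM minimum of 0.5 or none), DESeq2 size factors, all 18 libraries in 1 fit, other count filters (none, or 10 counts), the replicate number as a block, and libraries left out. A DESeq2 run lacking SAH 7d-5 and SAH 1d-3, the pathway calls without them and the correlations without them were chosen after seeing the data. These libraries themselves were picked because they stood apart in the same data, so no fit without them is independent of the data. Tables and figures were made with Python 3.11.15, pandas 2.3.3, numpy 2.4.6 and matplotlib 3.10.9.

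All 10 genes are named in every comparison. In each pathway list, the called genes with the most extreme changes in SAH 1d versus sham were named, up to 2 in each direction. The 10 genes and the lists were chosen with earlier results of these data known. Srxn1, Pgd, Sephs2, Pecam1 and Ccr2 were not analysed here, and some other genes are not reported here.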

Additional observations from a re-analysis of the deposited data

Results flagged for a closer look

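The level of each of the 10 genes was examined for a single library far from the rest in each of the 3 groups, by the gap to the nearest library as a share of the group's range (Dixon's ratio at its 95% critical value for 6 libraries). Of these 30 sets of 6 libraries, 8 held such a library, and chance alone marks about 1 in 20 sets. SAH 7d-5 was the distant library for Gpx1 (517 CPM), Gpx3 (161 CPM), Prdx1 (304 CPM) and Cat (85.6 CPM). SAH 1d-3 was the distant library for Sod2 (482 CPM), Acsl4 (356 CPM) and Prdx1 (271 CPM). SAH 1d-2 was the distant library for Gpx3 (16.7 CPM). The genes are measured in the same libraries, so the 8 are not independent of each other.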

How the results depend on the processing

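In SAH 1d versus sham, 3 of the 10 genes were called (25.4% of all genes), and 3 to 4 when a library was left out. Voom with sample weights called 5 (Acsl4 and Gpx4 added, 35.3% of all genes), and the fit of all 18 libraries called 1 (Sod1, 13.3% of all genes). Genes without overlap there numbered 1, but 3 on the FPKM scale (Gpx1, Prdx1 and Sod1, all higher). Without SAH 7d-5 and SAH 1d-3 they numbered 3 (Gpx1 and Sod1 higher, Acsl4 lower), and 1 to 3 with 1 library left out. The shares of all genes without overlap are not given for these other settings, here or in SAH 7d versus SAH 1d, so the counts cannot be set against them. In SAH 7d versus SAH 1d, no gene was called, but 1 (Acsl4) without both libraries in edgeR (13.6% of all genes) and 1 in DESeq2 (18.3%), and 0 to 1 were without overlap with 1 library left out. In SAH 7d versus sham, 1 (Sod1) was called by DESeq2 without both (2.94% of all genes).

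Directions turned for small or library-bound values, in log2 fold change. In SAH 7d versus SAH 1d, Gpx1 was -0.28 in voom, -0.28 without both libraries, -0.27 in DESeq2 without both, and -0.29 to 1.11 with 1 library left out. Acsl4 was 0.23, 0.27 and 0.28 under the same settings and -0.19 to 0.23 with 1 left out, and Prdx1 was -0.52 to 0.052 with 1 left out. In SAH 1d versus sham, Acsl4 was -0.40 to 0.014 with 1 left out. In SAH 7d versus sham, Sod2 was 0.0096 or 0.0097 on the FPKM scales. Sod3 was -0.0025 in voom, -0.037 without both in edgeR and -0.041 in DESeq2, and -0.070 to 0.12 with 1 left out. Cat was 0.0035 with at least 10 counts, 0.040 or 0.042 on the FPKM scales, and -0.078 to 0.073 with 1 left out. The causes were not tested. Of 720 single-gene values, 680 kept their direction and their side of the threshold. Values without an adjusted p, those of Gpx1 and Gpx3 in the DESeq2 test of both SAH 7d comparisons, were counted as on the same side. In SAH 7d versus sham, edgeR called at most 9 of all tested genes in any setting, so the side could hardly change there.

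With log2(FPKM + 0.1), the median of all genes shifted by 0.11 in SAH 1d versus sham, so the rise of Gpx1 there, 0.83, includes that shift.

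The replicate numbers do not pair the rats. Same-numbered libraries correlated in their deviations by -0.25 to 0.20, and the fit with the replicate block called 3, 0 and 0 of the 10 genes in SAH 1d versus sham, SAH 7d versus SAH 1d and SAH 7d versus sham. With 6 rats a group, 1 library could set the direction of a value, and SAH 7d values rest on SAH 7d-5 for Gpx1 and Gpx3.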
